A study of Mus musculus with 108 samples.

Results

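Chromatin that carried only the Polycomb mark in livers of mice on standard diet at both 3 and 12 months, and none of the measured marks after caloric restriction, formed 4791 stretches on the 19 autosomes. They were found from ChromHMM segmentations, in which every 200 bp bin of the genome carries 1 of 8 chromatin states. A bin was taken when it was in state 6, the repressed Polycomb state defined by H3K27me3 alone, in the groups SD 3m and SD 12m, and in CR 12m had turned to state 8, the quiescent state without any of the marks. Adjacent bins were joined. The stretches held 126167 bins, or 25.2 Mb, of 12313718 autosomal bins (1.02%). The states themselves chose the bins, so the change of state in these 3 segmentations is a description and was not tested.

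The segmentations came from livers of inbred C57BL/6 female mice, fixed in formalin and embedded in paraffin, whose chromatin was immunoprecipitated for H3K4me3, H3K27me3, H3K27ac and H3K4me1. SD 3m comprised 8 mice of 3 months on standard diet, SD 12m comprised 8 mice of 12 months on standard diet, and CR 12m comprised 9 mice of 12 months given 30% fewer calories from the age of 3 months on. The study also sequenced mice of 6 months on standard diet (SD 6m), which were not analysed here. The libraries of a group were merged before states were assigned, so each group has 1 segmentation, without replicates, and diet, the individual mice and the merged libraries cannot be told apart. The merged H3K27me3 libraries numbered 7 (SD 3m), 8 (SD 12m) and 6 (CR 12m), and their read depth is unknown. For SD 3m, SD 12m and CR 12m, state 6 made up 8.26%, 12.4% and 9.42% of the autosomal bins, and the part of these differences and of the library numbers in the results below was not tested. As a check of the tissue, the TSS of all 6 hepatocyte markers examined (Alb, Apoa1, Ttr, Cyp2e1, Tat and Hnf4a) lay in a TSS or enhancer state (states 1 to 4) in each segmentation. Intervals given below are Wilson 95% limits over bins or TSS, which cover counting error only and treat neighbouring bins as independent.

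H3K27me3 is deposited by the methyltransferase Ezh2 of Polycomb repressive complex 2, spreads over domains of several kilobases or more, and is read by Polycomb repressive complex 1. In differentiated tissue such as liver, it lies over genes of other lineages and of development, often at CpG-rich promoters, and it thins out when it is not copied after replication or is removed by the demethylases Kdm6a and Kdm6b. A quiescent bin is one in which no mark was detected, so it does not say that a gene there is active.

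The sequences below, from the RefSeq assembly GRCm38.p6 (the mm10 build), show what kind of DNA was involved, at its most extended and at its most gene-linked. The first set holds the central 300 bases of the 3 longest stretches. Capitals mark CpG dinucleotides, the site of DNA methylation and a sequence feature of Polycomb target promoters. The centre of the first lies in an intron of the long non-coding RNA gene Gm34225, that of the second lies between genes and that of the third lies in an intron of Rnf17.
Stretch 1, chr7:115028451-115028750, plus strand: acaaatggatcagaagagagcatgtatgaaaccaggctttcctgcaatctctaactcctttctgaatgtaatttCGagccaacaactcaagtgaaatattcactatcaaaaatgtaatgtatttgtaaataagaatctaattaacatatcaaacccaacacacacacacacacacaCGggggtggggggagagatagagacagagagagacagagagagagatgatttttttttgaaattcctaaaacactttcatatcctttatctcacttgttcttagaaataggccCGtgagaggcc
Stretch 2, chr17:36788751-36789050, plus strand: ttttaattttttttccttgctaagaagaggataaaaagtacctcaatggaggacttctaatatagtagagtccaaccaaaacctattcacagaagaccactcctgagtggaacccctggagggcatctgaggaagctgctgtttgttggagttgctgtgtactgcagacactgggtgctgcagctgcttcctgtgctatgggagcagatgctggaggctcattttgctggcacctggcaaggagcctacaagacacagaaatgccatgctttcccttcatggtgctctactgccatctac
Stretch 3, chr14:56417751-56418050, plus strand: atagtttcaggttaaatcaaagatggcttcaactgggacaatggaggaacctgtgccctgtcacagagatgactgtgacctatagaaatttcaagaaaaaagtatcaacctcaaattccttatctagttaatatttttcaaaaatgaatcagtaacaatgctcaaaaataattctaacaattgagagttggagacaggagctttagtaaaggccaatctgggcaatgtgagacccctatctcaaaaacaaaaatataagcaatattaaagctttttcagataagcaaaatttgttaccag
The 3 windows held 3, 0 and 0 CpG, with a GC content of 38.0%, 47.7% and 34.0%.

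The second set holds the 250 bases before the RefSeq start of protein-coding genes whose promoter region belonged entirely to the stretches. These are the first genes of the 20 described further on. They are shown on the strand of the gene and again with CpG in capitals. RefSeq promoters were matched for Hfm1, Syt14, Anks1b and Fstl4, and the other two of the first 6 genes were Rnf17 and Bicdl1.
Hfm1, chr5:106925891-106926140, minus strand: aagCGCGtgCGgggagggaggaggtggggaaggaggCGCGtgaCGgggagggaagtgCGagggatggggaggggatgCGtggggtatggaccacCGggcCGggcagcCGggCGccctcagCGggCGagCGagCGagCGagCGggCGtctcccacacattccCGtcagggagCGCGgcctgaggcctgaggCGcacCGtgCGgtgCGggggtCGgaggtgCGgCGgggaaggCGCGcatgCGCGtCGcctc
Syt14, chr1:193035776-193036025, minus strand: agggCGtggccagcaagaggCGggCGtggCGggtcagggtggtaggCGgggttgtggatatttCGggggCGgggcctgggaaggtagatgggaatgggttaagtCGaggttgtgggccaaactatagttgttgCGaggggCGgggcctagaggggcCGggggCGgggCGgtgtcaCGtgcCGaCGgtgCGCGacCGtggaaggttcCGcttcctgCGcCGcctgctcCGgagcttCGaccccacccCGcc
Anks1b, chr10:89873259-89873508, plus strand: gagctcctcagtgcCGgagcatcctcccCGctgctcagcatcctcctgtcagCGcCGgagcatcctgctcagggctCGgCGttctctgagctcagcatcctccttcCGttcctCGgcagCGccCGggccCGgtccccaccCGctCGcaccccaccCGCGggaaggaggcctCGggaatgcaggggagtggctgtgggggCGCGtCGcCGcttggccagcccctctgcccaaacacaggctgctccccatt
Fstl4, chr11:52764456-52764705, plus strand: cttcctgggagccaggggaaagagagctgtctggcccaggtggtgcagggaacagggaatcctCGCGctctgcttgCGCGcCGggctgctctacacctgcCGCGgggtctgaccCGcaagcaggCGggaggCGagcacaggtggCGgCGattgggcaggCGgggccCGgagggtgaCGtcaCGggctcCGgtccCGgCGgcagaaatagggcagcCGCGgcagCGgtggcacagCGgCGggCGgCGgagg
These windows held 34, 25, 20 and 26 CpG. Of 18267 matched autosomal promoters, 4.26% had as many CpG as Hfm1 or more, and 23.3% as many as Anks1b or more. These 4 are richer in CpG than most promoters in the stretches. The 224 matched promoters with a TSS there had a median of 5 CpG, and 29.5% had 10 or more. Over all matched promoters the median was 9 CpG and 49.6% had 10 or more.

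The share of Polycomb chromatin involved was compared with the mirrored change under standard diet. Of 573296 bins in state 6 in both SD groups, 22.0% (21.9% to 22.1%) were quiescent in CR 12m, 77.3% stayed in state 6 and 0.742% took another state. In the mirrored direction, 71063 of 523259 bins in state 6 in both SD 3m and CR 12m were quiescent in SD 12m (13.6%, with limits of 13.5% and 13.7%). Bins lost in CR 12m only were thus 1.78 times as many as bins lost in SD 12m only. Bins lost in both groups were more frequent than either, with 296722 bins or 2.35 times the number lost in CR 12m only. The comparisons share the SD 3m segmentation.

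Among bins of 1 and the same state in both SD groups, the quiescent share in CR 12m depended on that state. It was 28.9% for state 7, the state of weak H3K4me3, 9.27% for state 5, 7.40% for state 4 and 0.0121% for state 3, the last 3 being enhancer states. State 6 therefore had the second highest share. Bins that left state 6 for an enhancer state in CR 12m were few. State 4 took 1992 of them, state 5 took 1960 and state 3 took 57.

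Each autosome held between 78 stretches (chromosome 19) and 437 stretches (chromosome 2). The share of state 6 bins lost in CR 12m only ranged from 15.3% on chromosome 2 to 34.7% on chromosome 14, with a median of 22.5%. The mirrored share ranged from 9.59% on chromosome 13 to 21.5% on chromosome 16, with a median of 13.3%. The loss in CR 12m was the larger on 18 of 19 autosomes, the exception being chromosome 12 with 18.9% against 19.3%. The ratio of the number of bins was highest on chromosome 14, at 3.71, and chromosome 13, at 3.59.

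**Figure D1:**
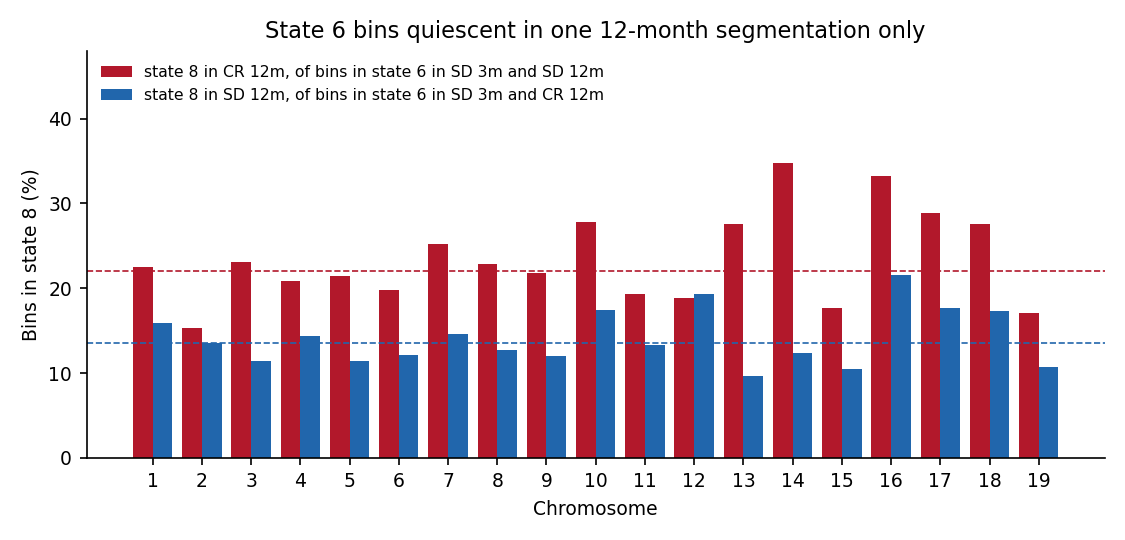
Percent of bins in state 8 for each autosome. Red bars give the bins lost in CR 12m among those in state 6 in SD 3m and SD 12m, blue bars give the bins lost in SD 12m among those in state 6 in SD 3m and CR 12m, and dashed lines give the values over all autosomes (22.0% and 13.6%). The red bar is the taller on 18 of 19 chromosomes and reaches 34.7% on chromosome 14.

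Most stretches measured a few kilobases. Their median length was 3.6 kb, with quartiles of 1.6 kb and 7.2 kb, and the longest measured 59.2 kb. Only 147 stretches (3.07%) consisted of a single bin. Stretches of at least 5 kb were 39.3% of the total but held 75.1% of the bins, and the 113 stretches of at least 20 kb held 11.4%. For comparison, stretches in state 6 in all 3 segmentations had a median length of 8.4 kb, stretches lost in both groups at 12 months 4.2 kb and stretches lost in SD 12m only 2.8 kb.

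To see where in a domain the loss fell, unbroken runs of bins in state 6 in both SD groups were taken as domains, which gave 7458 domains with a median length of 9.2 kb. In CR 12m, 3287 domains (44.1%) lost no bin to quiescence, 1545 (20.7%) became quiescent over their whole length and the others lost a part. Domains lost whole were short, with a median of 4.4 kb, and accounted for 35.4% of the bins in the stretches. Domains in which the loss reached one edge accounted for 41.5% of the bins and domains in which it reached both edges, without taking the whole, for 15.8%. Loss in the interior alone, with neither edge quiescent, was seen in 208 domains and made up 7.23% of the bins.

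Loss declined with the length of the domain. Of the bins in domains of 1 kb to less than 5 kb, 45.3% were lost in CR 12m only, against 31.4% in domains of 5 kb to less than 20 kb, 16.4% in domains of 20 kb to less than 100 kb and 5.76% in domains of 100 kb or longer. None of the 67 domains of 100 kb or longer was lost whole. The mirrored loss in SD 12m followed the same order at a lower level, with 30.2%, 20.1%, 9.19% and 2.96%.

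**Figure D2:**
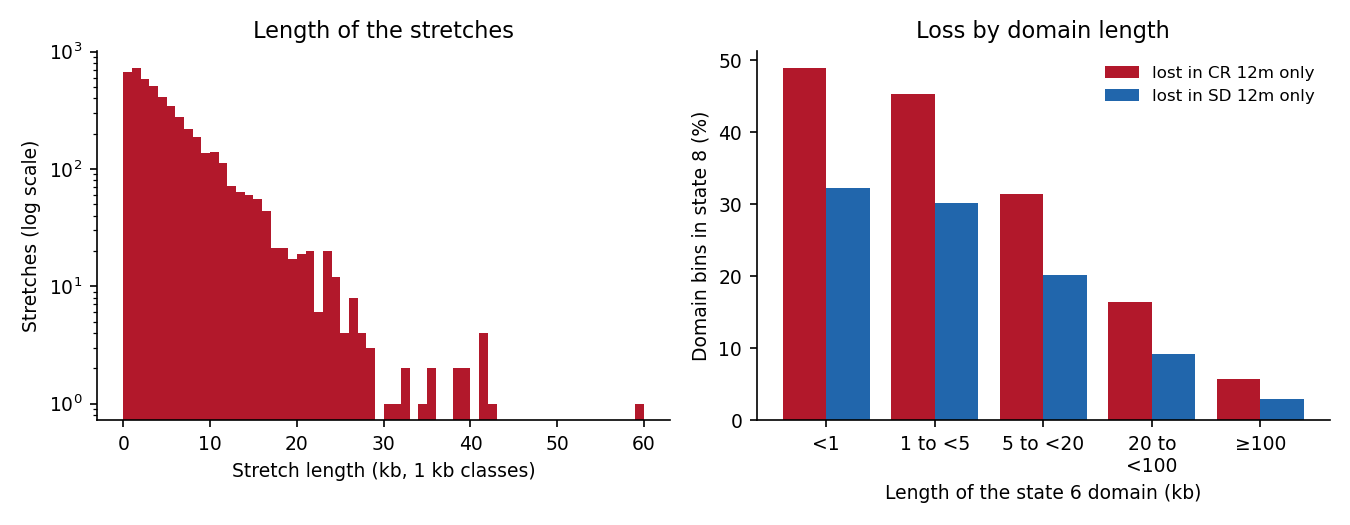
Left, number of stretches (log scale) by length in classes of 1 kb. Right, percent of domain bins in state 8 by length of the domain in kb, for the loss in CR 12m only (red) and the mirrored loss in SD 12m only (blue). Both series fall from the shortest to the longest domains, from 48.8% to 5.76% in red and from 32.2% to 2.96% in blue.

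The same order was found within domains. Of the bins less than 1 kb from the edge of their domain, 38.1% were lost in CR 12m only, against 18.7% at 5 kb to less than 10 kb and 2.48% at 50 kb or more. The median distance to the edge was 2.8 kb for bins of the stretches and 6.6 kb for bins that stayed in state 6. In the mirrored loss the shares were 26.2%, 10.4% and 0.781% at the same distances.

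Most bins directly beside the stretches were in state 6 in each SD group taken alone. In SD 3m 70.8% of the bins directly beside a stretch were in state 6 and 25.5% in state 8, and in SD 12m 66.3% and 30.9%. In CR 12m only 35.9% of these bins were in state 6 and 60.6% were in state 8, so that many stretches were part of longer quiescent runs. By the rule, this 60.6% was not in state 6 in both SD groups, or it would belong to the stretches. Most adjacent bins thus did not hold state 6 at both SD ages, and the flank values are partly fixed by the rule. State 6 adjoined the stretch on both sides in 319 stretches (6.66%) in CR 12m, on one side with state 8 on the other in 2660 (55.5%), and state 8 on both sides in 1505 (31.4%). State 6 still present in CR 12m lay within 10 kb of 77.6% of the stretches and within 50 kb of 91.2%. TSS and enhancer states (1 to 5) were rare neighbours and touched 6.01%, 4.45% and 5.82% of the stretches in the order SD 3m, SD 12m and CR 12m.

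Farther out, state 6 decreased in both SD groups, at 10 kb to 42.3% (SD 3m) and 43.5% (SD 12m) and at 20 kb to 35.6% and 39.3%. In CR 12m it was nearly level, with 36.2% at 1 kb, 33.3% at 10 kb and 30.9% at 20 kb. At 20 kb all values remained above the share of state 6 in the autosomes of the same group. The TSS and enhancer states had risen there to 12.3%, 11.6% and 11.6% of the bins, in the order SD 3m, SD 12m and CR 12m. The stretches thus lay in Polycomb-rich surroundings in every segmentation, including CR 12m. The rule draws from runs of state 6, which favours such surroundings, and the flanks of other state 6 stretches were not examined.

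**Figure D3:**
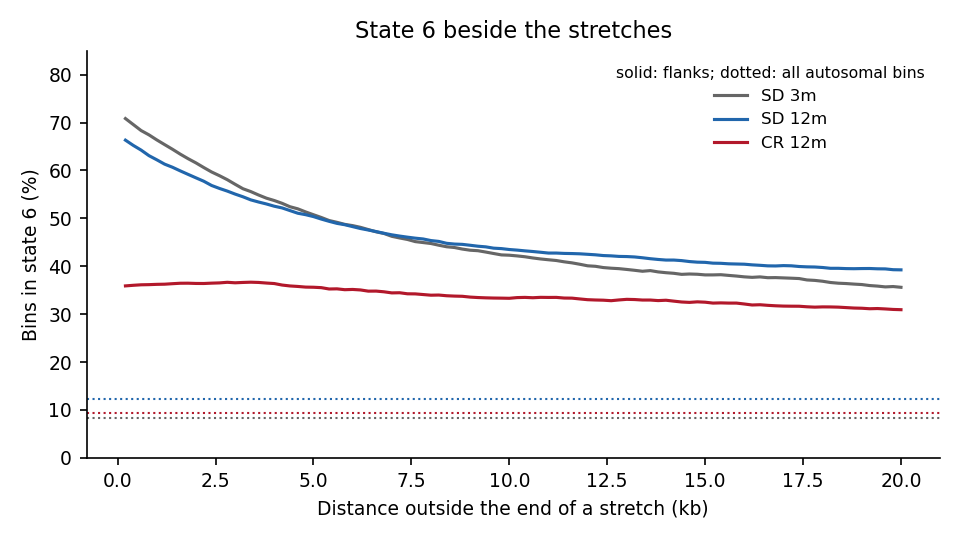
Percent of bins in state 6 against the distance in kb outside the ends of the stretches, both sides pooled, in SD 3m (grey), SD 12m (blue) and CR 12m (red). Dotted lines give the share of state 6 over all autosomal bins (8.26%, 12.4% and 9.42%). The SD curves start at 70.8% and 66.3% and fall, while the CR 12m curve stays between 36.7% and 30.9%.

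The 10 longest stretches measured 38.2 kb to 59.2 kb, and 9 of them overlapped an annotated gene. The longest, at chr7:114999001-115058200, lay in a gene-poor interval, 149 kb from Insc and 413 kb from Sox6 on its other side, and overlapped only Gm34225. It was part of an 80 kb domain, and the bin beyond its right end was in state 6 in all 3 segmentations. The second, at chr17:36767801-36810000, was a domain lost whole. It contained all of H2-M10.5, a non-classical class I gene of the major histocompatibility complex. Both 5 kb flanks were fully quiescent there in SD 12m and CR 12m, and 92.0% of them were in state 6 in SD 3m.

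The third stretch, at chr14:56397001-56438800, covered the promoter and 29.5% of the gene Rnf17, which encodes a Tudor domain protein of male germ cells. The fourth, at chr11:66880801-66922200, was a whole domain and reached over the start and 57.3% of Pirt, a regulator of the heat-sensing channel TRPV1 in sensory neurons. The sixth, at chr17:43501601-43542600, was also a whole domain. It took in 49.3% of Ankrd66 and 8.53% of Mep1a, a subunit of the metalloprotease meprin. The eighth, at chr19:42860801-42900400, lay entirely within introns of Hpse2, a relative of heparanase, and the flanks of 5 kb on both sides were fully in state 6 in SD 12m and fully in state 8 in SD 3m and CR 12m. The ninth, at chr11:58751801-58790600, held the olfactory receptor genes Olfr316, Olfr315 and Olfr314 and the 3′ part of Fam183b. The fifth overlapped the non-coding gene Gm35567, the tenth overlapped Gm6145 and Mir6390, and the seventh had no annotated gene.

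**Figure D4:**
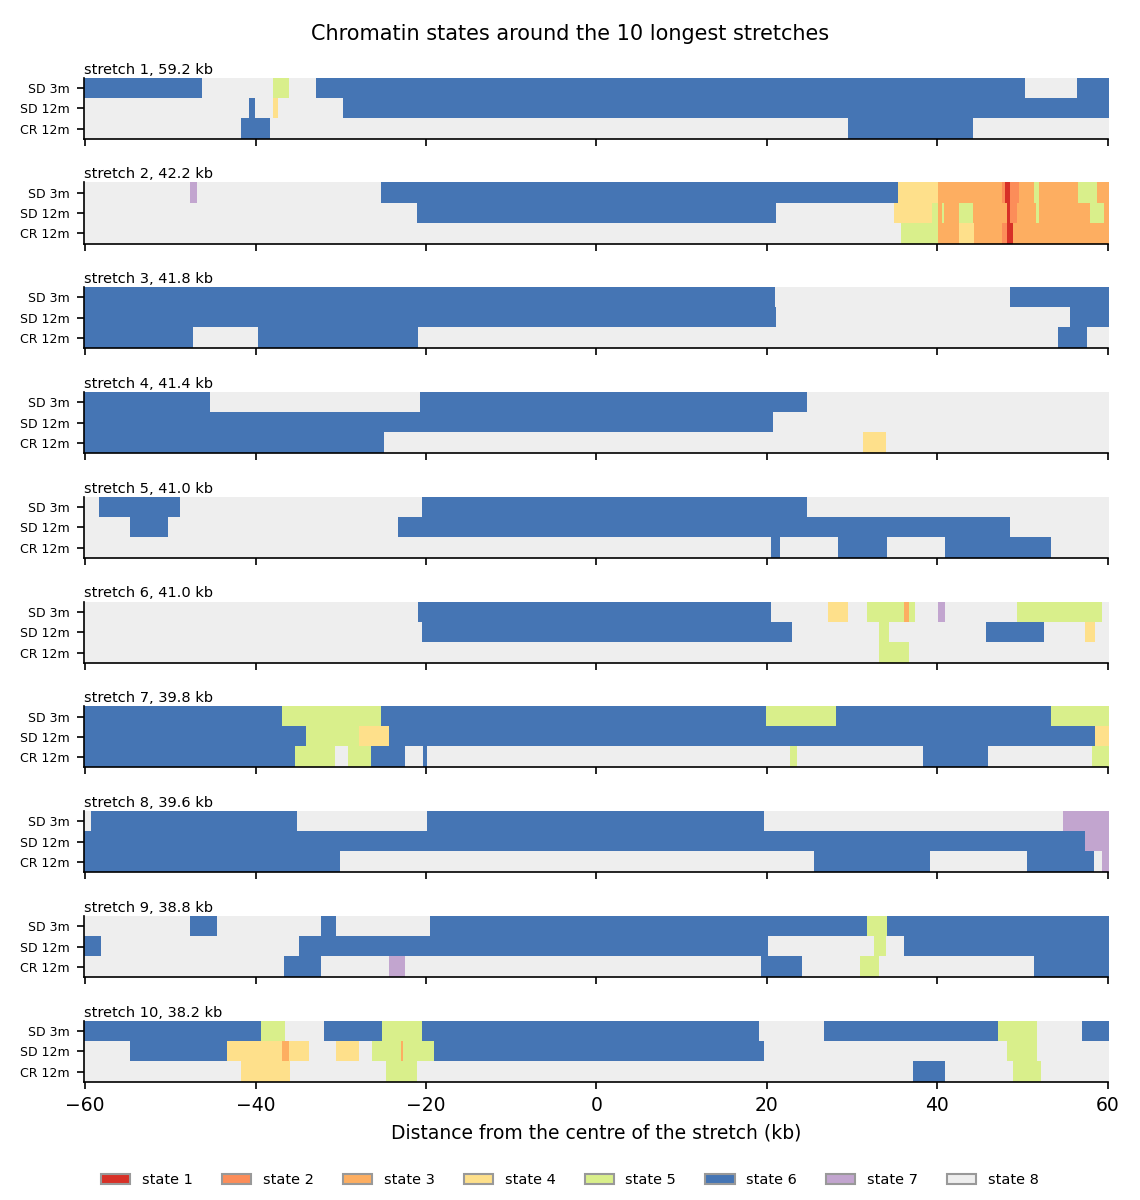
Chromatin states in SD 3m, SD 12m and CR 12m within 60 kb of the centre of each of the 10 longest stretches, one colour per state, by distance in kb. The blue block of state 6 in the middle of the upper rows of each panel is grey (state 8) in the CR 12m row, by the choice of the stretches, and blue remains nearby in the CR 12m row of most panels.

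The DNA of the stretches was less rich in CpG than the Polycomb chromatin that stayed. GC content was 43.1% in the stretches and 44.3% in bins in state 6 in all 3 segmentations, and CpG occurred 9.15 and 10.9 times per kb. Both were lower in the stretches on each of the 19 autosomes. Bins with 10 or more CpG, as found in CpG-rich promoters, were 0.783% of the stretches and 1.81% of the bins that stayed, again with the same order on 19 of 19 autosomes. Repeats, the bases masked in the assembly, made up 26.3% and 25.1%, with more repeats in the stretches on 17 of 19 autosomes. Bins lost in both groups at 12 months had 8.72 CpG per kb and 28.6% repeats, and bins lost in SD 12m only had 9.54 CpG per kb and 28.6% repeats. All autosomal bins had a GC content of 41.9%, 8.51 CpG per kb and 33.5% repeats. Against them, the stretches were richer in GC and in CpG per kb and poorer in repeats. Bins with 10 or more CpG went the other way, with 0.783% of the stretches and 1.03% of all autosomal bins. These sequence measures took no part in the choice of the bins.

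Read the other way, the share of state 6 bins lost in CR 12m only fell as CpG rose. It was 24.6% in bins without a CpG, 22.7% with 1 or 2, 19.5% with 3 to 9 and 10.7% with 10 or more. On single autosomes the share ranged from 16.2% to 39.5% without a CpG and from 6.79% to 17.8% with 10 or more. The classes without a CpG and with 10 or more were also compared within broad bands of distance to the edge of the domain. Domain length and distance to a TSS were not held fixed, and the part of edge distance was not tested. Less than 5 kb from the edge, 34.2% of bins without a CpG and 19.3% of bins with 10 or more were lost, and 20 kb or farther inside these shares were 9.18% and 1.0%. In the mirrored loss the shares were 14.3% without a CpG and 5.11% with 10 or more. Along GC content the loss in CR 12m only fell from 25.4% below 35% GC to 14.8% at 55% GC or more, whereas the mirrored loss stayed between 12.6% and 14.2%.

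**Figure D5:**
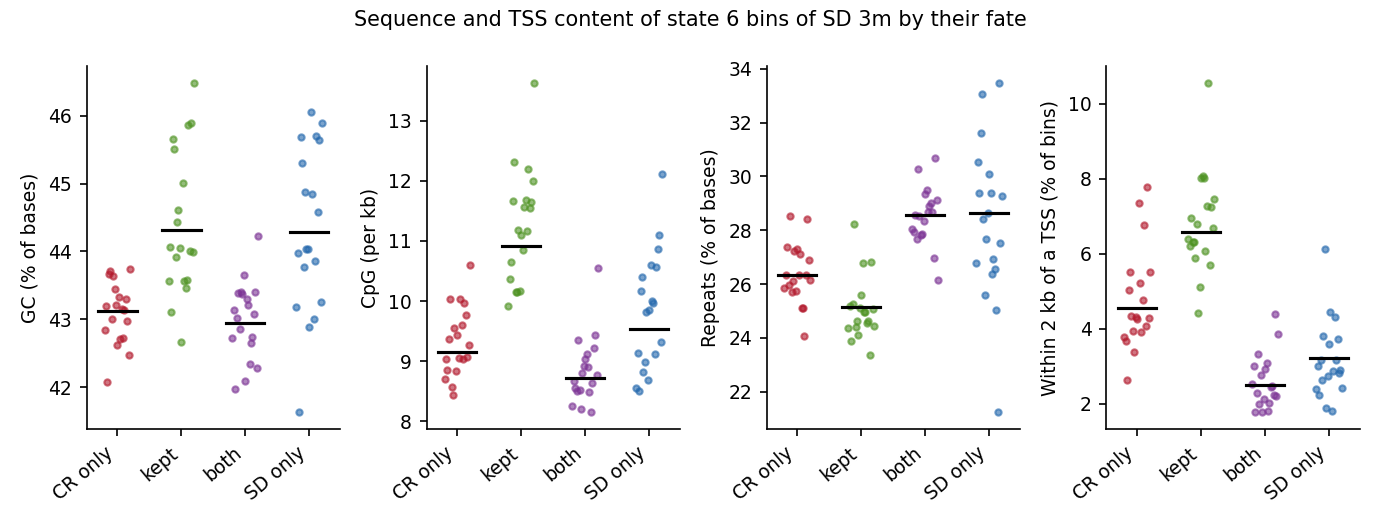
GC content, CpG per kb, share of repeats and share of bins within 2 kb of a TSS for bins in state 6 in SD 3m that were lost in CR 12m only, kept in all 3 segmentations, lost in both groups at 12 months or lost in SD 12m only. Each point is 1 of 19 autosomes and each line is the value over all autosomes. The axes do not start at 0. The points of the first class lie below those kept on each autosome for GC content and CpG.

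Most of the stretches lay outside genes. Gene bodies, each taken as the span of a gene's longest curated RefSeq transcript, covered 33.2% of their bases (exons 2.36% and introns 30.8%), against 36.0% of the bases that stayed in state 6 and 41.5% of the autosomes. Of the 4791 stretches, 1764 (36.8%) touched a gene body, 855 (17.8%) touched an exon and 270 (5.64%) contained a TSS. The median distance from a bin to the nearest TSS was 32.3 kb in the stretches and 22.5 kb in the chromatin that stayed, the former being the larger on 17 of 19 autosomes. Over all autosomal bins it was 55.1 kb. The share of state 6 bins lost in CR 12m only rose from 16.2% within 2 kb of a TSS to 21.03% at 10 kb to less than 50 kb and 35.4% at 200 kb or more. In the mirrored loss these shares were 7.11%, 15.1% and 16.5%.

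At the TSS themselves, 290 of 24963 autosomal TSS (1.16%) lay in a bin of the stretches. Of the 1850 TSS in state 6 in both SD groups, these 290 were 15.7% (14.1% to 17.4%), compared with 122 of 1686 in the mirrored loss (7.24%, with limits of 6.09% and 8.57%). The 290 comprised 236 protein-coding genes, 39 long non-coding RNA genes, 8 microRNA genes and 7 others. Among TSS in state 6 in both SD groups, the lost share was 15.9% for protein-coding, 13.7% for long non-coding and 14.04% for microRNA genes, with overlapping limits. Protein-coding TSS with fewer than 10 CpG per kb around them were lost in 22.6% of cases (50 of 221), and those with 50 or more in 11.9% (70 of 587). In 119 genes, of which 97 were protein-coding, all 21 bins within 2 kb of the TSS belonged to the stretches.

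Among those 97, the 20 with the most bins of the stretches in their body are described by their known roles. Hfm1 and Rnf17 have known functions in germ cells. Hfm1 (chr5:106840197-106925890), a DNA helicase of meiotic crossing over, was quiescent in CR 12m over its promoter and 52.3 kb of its body, 71.1% of the state 6 bins it had in both SD groups. Rnf17 (chr14:56402697-56525032) lost 95.7% of its state 6 bins, or 43.9 kb. Hyal6 (chr6:24733245-24745452), a hyaluronidase gene, lay wholly within a stretch, with 12.2 kb of 12.2 kb.

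Others are known from neurons and had mostly long bodies, of which the loss covered a part. Syt14 (chr1:192891233-193035775), of the synaptotagmin family of vesicle proteins, lost 44.0 kb or 92.1% of its state 6 bins. Anks1b (chr10:89873509-90973300), a scaffold of the postsynaptic density, lost 36.9 kb, which was 36.8% of its state 6 bins and 3.35% of its body. Clstn2 (chr9:97444395-98033167), a synaptic cadherin relative, lost all of its 87 state 6 bins in a body of 589 kb. Kcnq3 (chr15:65986374-66286629), a subunit of the M-type potassium channel, lost 50 of 148 state 6 bins, and Ptprn2 (chr12:116485720-117278167), a phosphatase-like protein of dense-core vesicles, lost 52 of 187. Pirt lost all of its 52. Fstl4 (chr11:52764706-53187347), which encodes a follistatin-like protein, lost 90.9%.

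Of the others, Cpa4, a carboxypeptidase, lost 59.0% and Bicdl1, an adaptor of dynein transport, lost 43.8% of the state 6 bins in the body. Frmd4b, a FERM domain protein, lost 64.9%. Asb14, of the ankyrin repeat and SOCS box family, Slc22a3, an organic cation transporter, Ptn, which encodes the growth factor pleiotrophin, Wdr72, needed for enamel, Mcc, Spink8, a Kazal-type protease inhibitor, and Enox1 lost all. In all, 10 of the 20 genes lost every state 6 bin of their body. The 20 were chosen by their bins of the stretches at the TSS and in the body, so this count does not speak for other genes. Ranking by bins in the body favours long genes, and 11 of the 20 had bodies over 100 kb. Of the 20, 12 had 50 or more CpG per kb at the TSS. Over all 236 protein-coding TSS in the stretches, 70 (29.7%) had as many, against 47.7% of all autosomal protein-coding TSS. Of protein-coding TSS that stayed in state 6, 41.1% had as many. The share was lower than in the stretches for TSS lost in both SD 12m and CR 12m (21.5%). It was also lower for TSS lost in SD 12m only (19.3%).

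Ranked by the bases of the stretches in the gene body instead, most of the leading genes did not change at the TSS. In the 15 genes with the most such bases, the TSS bin belonged to the stretches in 4 (Hfm1, Dnah12, Syt14 and Rnf17), stayed in state 6 in all 3 segmentations in 6 and had another course in 5. Asic2 (chr11:80880165-81968396), a proton-gated sodium channel, headed the list. It lost 90.4 kb, 30.0% of its 1506 state 6 bins, and its TSS kept state 6. The TSS also kept state 6 in Prickle2, a planar polarity protein (49 kb lost), Phactr1, a phosphatase and actin regulator (48 kb), Hpse2 (46.2 kb), the ciliary dynein heavy chain gene Dnah14 (45.8 kb) and the synaptic vesicle glycoprotein gene Sv2c (43.6 kb). Slit3, a guidance ligand, lost 46.4 kb or 82.3% of its state 6 bins, and its TSS took the states 8, 6 and 8 in the order SD 3m, SD 12m and CR 12m. The uncharacterised 1700113H08Rik lost 73.0 kb, with a TSS in states 6, 8 and 6, and Magi2, a synaptic scaffold, lost 42.8 kb with states 8, 6 and 6. In Tenm4, a teneurin adhesion protein (56.6 kb), and Agbl4, a tubulin deglutamylase (44.7 kb), the TSS was quiescent throughout. Dnah12, another ciliary dynein heavy chain, lost 51.2 kb.

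Among genes of at least 20 kb, the share of the body in the stretches was highest in Dapl1 (86.5%), followed by Scnn1g, the gamma subunit of the epithelial sodium channel (71.8%), Asb14 (65.1%), Hfm1 (61.02%), Cpa4 (59.2%) and Ankrd45 (58.6%). Pde6b, a subunit of the rod phosphodiesterase, had 57.7%, with its TSS among those lost. Lgsn, the lens protein lengsin, also had 57.7%, Gm829 had 55.3% and the amino acid transporter Slc6a20a had 54.4%. Over the genome, 1092 of 20021 protein-coding autosomal genes (5.45%) had at least 1 bin of the stretches in the body, and 218 had at least 10 kb.

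Gene families, among them typical Polycomb targets, were then counted at their TSS. The background is the 15.7% of all TSS in state 6 in both SD groups that were lost, and as the same states chose the TSS, the shares are descriptions. None of the 30 Hox TSS in state 6 in both SD groups was lost, and 29 stayed in state 6. None of 46 keratin and keratin-associated TSS was lost either, and all 46 stayed. Counts of 0 allow shares of up to 10% and 6.52% by the rule of 3 counts of the total, and the Wilson upper limits are 11.4% and 7.71%. These limits treat the TSS as independent, which neighbouring genes within 1 domain are not, and a lower share was not tested. Of 103 developmental transcription factor TSS, 4 were lost (3.88%, 1.52% to 9.56%) and 96 stayed. The 4 were Irx2, of the Iroquois homeobox family, with all 21 bins, Pou2f3, the factor of tuft cells, and Sox30, of the testis, with 12 each, and Nkx1-2 with 8. No TSS was lost among 13 of neural adhesion and guidance genes and 4 of cadherins and protocadherins. All 13 of the former stayed in state 6. Of the 4 latter, 2 stayed and the rest took a state other than quiescent. The Wilson upper limits are 22.81% and 48.99%, both above the background of 15.7%, so these counts do not show a lower share.

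Signalling and membrane protein genes followed. Lost TSS were 3 of 19 for ligands of the Wnt, Fgf, Bmp, Gdf and hedgehog families (Wnt7a, Fgf7 and Wnt5b), 4 of 37 for potassium, sodium and calcium channels (Kcnq3, Kcnk13, Cacng3 and Kcnk1) and 4 of 24 for neurotransmitter receptors (the dopamine receptor Drd1, the serotonin receptor Htr7, the adrenergic receptor Adra1d and the nicotinic subunit Chrnb4). They were 5 of 31 for solute carriers (Slc22a3, Slc26a3, Slc24a4, Slc15a1 and Slc24a3), 3 of 15 for chemokines, interleukins and their receptors (Il9r, Cxcl14 and Il24), 1 of 8 for collagens (Col9a2) and 3 of 7 for Zfp zinc finger genes (Zfp385b, Zfp287 and Zfp488). The Wilson limits of these shares included 15.7%, except for the zinc finger genes with 15.8% to 74.95%, a share resting on 7 TSS. The cytochrome P450 genes had 2 TSS in state 6 in both SD groups, the growth hormone, IGF and insulin axis and the fasting and lipid metabolism genes 1 each, and none of these was lost. No gene of the Polycomb complexes or H3K27 demethylases and no cell cycle inhibitor had a TSS in state 6 in both SD groups.

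Of the imprinted genes, 2 of 7 TSS in state 6 in both SD groups were lost (28.6%). The Wilson limits of 8.22% and 64.1% include the background of 15.7%. H19 (chr7:142575530-142578146), the fetal non-coding RNA next to Igf2, lay with 16 of 21 bins in the stretches, and Slc22a3 with all 21. The microRNA Mir675, which is processed from H19, lay in the same 3.2 kb stretch.

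Olfactory and vomeronasal receptors contributed 32 of the 290 TSS. Of their 98 TSS in state 6 in both SD groups these were 32.7% (24.2% to 42.4%), 65 stayed in state 6, and 20 receptor genes had all 21 bins around the TSS in the stretches. Olfactory receptor genes are expressed one at a time in sensory neurons and stand in clusters, so neighbours are not independent. The 32 TSS lay in 28 stretches on 11 chromosomes, and 10 of them were on chromosome 11. They included Olfr224, Olfr322, Olfr323, Olfr325, Olfr311 and Olfr313 beside the 3 receptors of the ninth longest stretch. Only 4 of the 32 were vomeronasal receptors. The list holds 1468 autosomal TSS in all.

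The 8 microRNA genes, named here after their states were seen, were Mir182, Mir183, Mir184, Mir205, Mir675, Mir96, Mir6390 and Mir7215. Mir183, Mir96 and Mir182 form 1 cluster known from sensory cells, and all of it lay in a 6.6 kb stretch at chr6:30164001-30170600. Their mature sequences, from RefSeq, are shown because 1 stretch held the whole cluster and its members have related seeds (bases 2 to 8, in capitals).
mmu-miR-183-5p, chr6:30169711-30169732, minus strand: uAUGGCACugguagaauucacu
mmu-miR-96-5p, chr6:30169506-30169528, minus strand: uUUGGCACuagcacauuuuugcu
mmu-miR-182-5p, chr6:30165962-30165986, minus strand: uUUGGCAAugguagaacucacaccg
Mir205, an epithelial microRNA, lay in a stretch of 9.6 kb and Mir184 in one of 14.8 kb.

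Markers of liver cell types were examined whatever their states. None of 25 autosomal marker TSS for hepatocytes, Kupffer cells, sinusoidal endothelial cells, stellate cells, cholangiocytes and T and B cells belonged to the stretches, and none had a bin of the stretches within 2 kb. Clec4f, a Kupffer cell receptor, and Cd3e, of the T cell receptor complex, were in state 6 in all 3 segmentations. They were the only markers in state 6 in both SD groups, as the rule requires. The absence of marker TSS from the stretches was therefore largely fixed by the rule. Of all TSS in state 6 in both SD groups, 15.7% were lost. Adgre1, which encodes a macrophage surface antigen, was in states 5, 6 and 8 (SD 3m, SD 12m and CR 12m), and Lrat, of vitamin A storage in stellate cells, in states 8, 6 and 8. Krt7, a cholangiocyte marker, was in states 8, 6 and 4. State 6 was kept from SD 12m to CR 12m at the TSS of Cd5l, a Kupffer cell marker (states 7, 6 and 6), and of the stellate cell markers Dcn (1, 6 and 6) and Des (8, 6 and 6).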

How the data were processed

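The deposited files give, for each group, the chromatin state of every 200 bp bin of chromosomes 1 to 19 and X as a label. Per the study's methods, the authors used bwa aln (0.6.2-r126) against mm10, took out duplicates and reads with a mapping quality below 1 with samtools (0.1.18), merged the libraries of a group, binarized them in ChromHMM and trained a model with 8 states. The quality limit removes reads that fit several near-identical gene copies. Groups follow the sample labels.

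From these states, bins were selected and joined. Counts and shares were obtained with Python 3.11.15, numpy 2.4.6 and scipy 1.17.1, with figures in matplotlib 3.10.9. Sequence content was taken from GRCm38.p6 over bins without an unassembled base, and TSS and gene bodies from the longest curated RefSeq transcript of a gene. The functions recovered 8 of 8 known quantities in simulated data. No test was possible, as each group has 1 segmentation. Genes named were those overlapping the 10 longest stretches, the 20 protein-coding genes with most selected bins among the 21 around the TSS (ties by bins in the body), the 15 with most selected bases in the body, the 10 of at least 20 kb with the highest selected share, up to 8 lost TSS of each gene family, and the markers. The regions and lists were chosen with earlier results of these data known. Alternatives varied the chromosomes, stretch length, domain edges, states required, window and transcripts.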

Additional observations from a re-analysis of the deposited data

How the results depend on the processing

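Of 32 alternative values, 19 stayed within 1.5 times the reported count or within the Wilson limits of the reported share, and 13 moved. For GC content and gene bodies, which are shares of bases, these limits took the number of bins as the total, so they are only a yardstick. With the state in SD 3m left free, the bins numbered 662515 in place of 126167, and the TSS 1006 in place of 290. Under it, the lost share of state 6 bins was 43.5%, GC content was 42.0% and the share in gene bodies 35.2%. With chromosome X the lost share was 24.7%, GC content 41.8% and the share in gene bodies 34.7%. The bins then numbered 187920, which was counted as within 1.5 times but lay close to that limit. The lost share was 21.7% with only stretches of at least 1 kb, 21.1% without bins within 1 kb of an edge of a state 6 run in SD 3m and 22.7% with any state other than state 6 in CR 12m. With the last, the share in gene bodies was 33.5%, and it was 29.6% with protein-coding genes only. GC content stayed below that of the state 6 chromatin that was kept under each of the 6 alternatives applied to both.

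No paired analysis was possible because each group has 1 segmentation of merged libraries. For the same reason no value is set against the spread between mice. The depth behind the states is unknown, and its part in the results was not tested.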

Other observations

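Of 2473 autosomal windows of 1 Mb, 1394 held at least 1 selected bin and 243 (9.83%) held 50% of them. All bins in state 6 in both SD groups lay in 1612 windows, and 255 (10.3%) held 50% of these bins. The window with the most, chosen after its values were seen, was chr6:49000001-50000000, with 151 kb of selected bins or 34.7% of its state 6 bins. It contains Npy, the neuropeptide Y gene, Igf2bp3, Gpnmb and Stk31.

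Chromosome X is outside the selection. Of its 186189 bins in state 6 in both SD groups, 33.2% were in state 8 in CR 12m, which is within the range of the autosomes. Of 128900 bins in state 6 in SD 3m and CR 12m, 3.64% were in state 8 in SD 12m, below the lowest autosome with 9.59%. For SD 3m, SD 12m and CR 12m, the state 6 share of the chromosome was 27.1%, 43.0% and 23.6%.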
